A study of Caenorhabditis elegans with 12 samples.

Results

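The genes described here build, cut or remodel the cuticle of *Caenorhabditis elegans*, or are named after families that do. They were chosen by symbol alone, namely the cut, cutl, noah, mlt, nas, phy and tsp families together with bli-3, bli-4, bli-5, dpy-18, dpy-31 and acn-1. Of the 15365 genes with values, 91 carried such a symbol. They comprised 29 cuticulins, 28 astacin proteases (dpy-31 counted among them), 17 tetraspanins, 8 mlt genes, 3 prolyl 4-hydroxylase genes, 2 NOAH genes and 4 other enzyme or inhibitor genes. They lay on all 6 chromosomes, with 23 on chromosome X and 12 to 17 on each of the others. The WBcel235 annotation holds 111 genes with such symbols, and the other 20, cut-1 and phy-4 among them, were not analysed here.

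RNA of whole wild-type N2 worms was sequenced in 12 libraries, 3 for each of 4 groups. Worms of the Control group had no added glucose, and those of the other 3 groups were kept on 2% glucose. To the glucose of DMSO+Glu the solvent dimethyl sulfoxide was added, and to that of Nar+Glu naringin, a flavonoid of citrus fruit, at 25 μM in the same solvent. By the methods of the study, all groups fed on the bacterium OP50 at 20 °C. They were exposed from the last larval stage on for several days, so that adults were sequenced. Progeny were removed by letting the adults settle. The sources used here do not say whether replicates came from separate cultures, so p-values measure the spread between these samples only.

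The cuticle is an extracellular coat that the epidermis secretes at its outer face and replaces at each moult. Its collagens are hydroxylated by prolyl 4-hydroxylases, trimmed by proteases such as the astacin DPY-31, and cross-linked through tyrosines by the dual oxidase BLI-3 with a haem peroxidase and the tetraspanin TSP-15. Cuticulins are matrix proteins, most of them with a zona pellucida (ZP) domain, that form insoluble layers and ridges of the cuticle, while moulting astacins and their inhibitors act when the old coat is shed. Adults no longer moult, and genes of this kind are best known from the larval moulting cycle.

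Levels are given in FPKM, fragments scaled by the length of the transcript and the size of the library. The summed gene FPKM was 308900 to 362748 per library, and the number of fragments behind these values is unknown. Most of the 91 genes were low: 50 had a mean below 2 FPKM over the 12 libraries and 15 a mean above 10. Changes are differences of mean log2(FPKM + 1), first group minus second, so that they understate the change of low genes. A gene was called changed at a limma p, adjusted by Benjamini-Hochberg over all genes tested in that comparison, below 0.05. Only genes with a mean above 1 FPKM were tested, 12151 in all, among them 70 of the 91. Of these 70, 16 had a mean at or below 1 FPKM in at least 1 group and passed through the groups in which they were higher. The called genes cutl-23, cutl-24, nas-31 and tsp-1 are among these 16.

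In worms on glucose, 14 of the 70 genes were called higher than in Control and 2 lower. Of all genes tested, 12.6% were called higher and 18.7% lower. The median change of the 70 genes was 0.17 and that of all genes tested was -0.06, both on the log2 scale, and 56 of the 70 had a positive change. Cuticulins gave 5 of the higher calls, astacins 4, tetraspanins 3, and the mlt and NOAH genes 1 each, whereas the prolyl 4-hydroxylases and the other enzymes gave none. With median-ratio scaling of the libraries the split of all called genes turned, from 1532 higher of 3808 to 2034 higher of 3423, and 20 of the 70 were then called higher and 2 lower. With quantile normalization 7 were called higher and 1 lower. Without 1 library the number called was 7 to 14, with 7 without Glu replicate 3, 9 without Control replicate 3 and 10 without Glu replicate 2.

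With naringin on top of glucose, 8 of the 70 genes were called higher than in the solvent group and 0 lower. Among all genes tested, 4.87% were called higher and 5% lower in this comparison. At an unadjusted p below 0.05 there were 26 of 70 in either direction, beside 3266 of all 12151 genes tested. Quantile normalization called 11 genes higher and 1 lower, mlt-10 (adjusted p = 0.0318), median-ratio scaling called 17 higher (10 of them cuticulins), and array weights 13. The median change was 0.20 for the 70 genes against -0.01 for all genes tested. Cuticulins gave 6 of the 8 calls and tetraspanins 2. When 1 library was left out, the calls numbered 3 (DMSO+Glu replicate 1 removed), 4 (DMSO+Glu replicate 3 or Nar+Glu replicate 1), 5 (Nar+Glu replicate 2 or 3) or 11 (DMSO+Glu replicate 2).

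**Figure D1:**
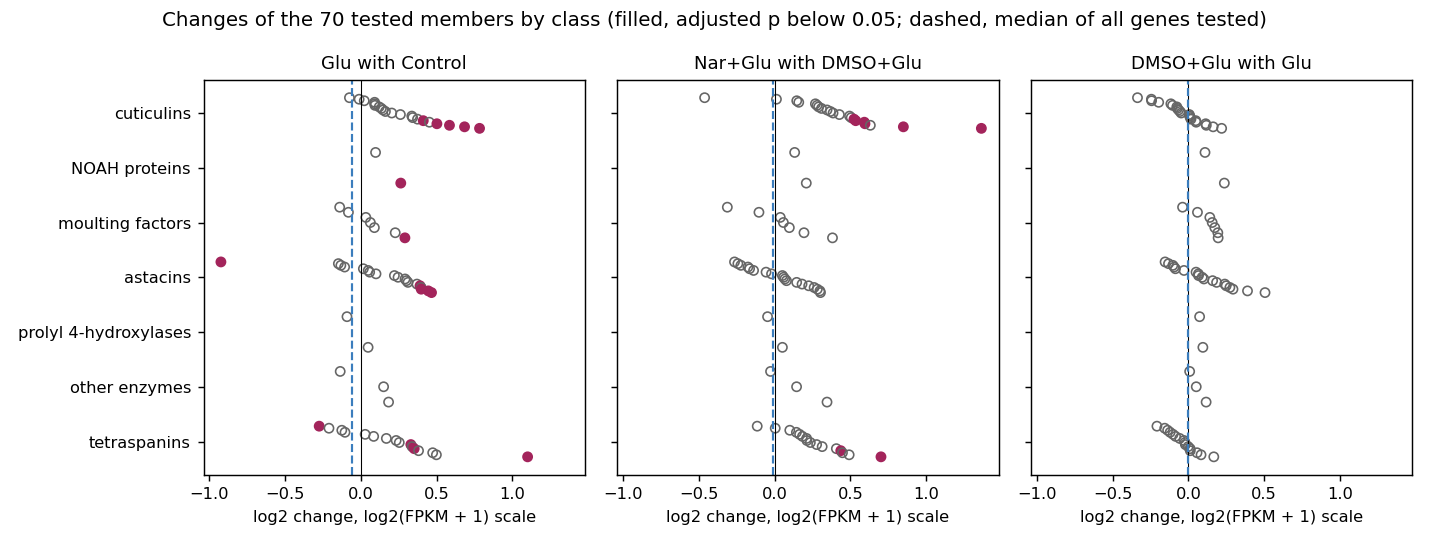
Each point is 1 of the 70 tested genes, placed by its change in log2(FPKM + 1) on the horizontal axis and by its class on the vertical axis, in the 3 comparisons. Filled points have an adjusted p below 0.05 and the dashed line is the median of all genes tested; 20 of 21 cuticulins lie above 0 in Nar+Glu with DMSO+Glu, and no point is filled in DMSO+Glu with Glu.

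The solvent alone was compared through DMSO+Glu with Glu, where 0 of the 70 genes were called by limma (1.25% of all genes tested were). An unadjusted p below 0.05 was found for 4 of the 70, beside 1137 of all 12151 genes tested. Under each alternative run, the count of called genes among the 70 remained 0. The lowest adjusted p was 0.255, for nas-3, whose change was 0.51.

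Whole worms hold many tissues, and marker lists moved in all 3 comparisons. Fewer cells of a type and less RNA per cell cannot be told apart in such bulk samples. Every tissue checked had marker transcripts in all libraries. For the counts below, 12.6% of all genes tested were called higher and 18.7% lower with glucose. With naringin these shares were 4.87% and 5%, and 1.25% were called in DMSO+Glu with Glu. Of 9 adult epidermis genes, mostly collagens expressed after the last moult, 5 were called higher in Glu than in Control and 7 lower in Nar+Glu than in DMSO+Glu. Their summed level was 380 to 442 FPKM in Control, 458 to 498 in Glu, 395 to 426 in DMSO+Glu and 188 to 230 in Nar+Glu. Of 8 neuronal genes, 7 were called higher with glucose and 5 with naringin, with sums of 63.7 to 67.7 FPKM in Control, 92.1 to 107.5 in Glu, 85.0 to 102.0 in DMSO+Glu and 104 to 118 in Nar+Glu. The Glu and Nar+Glu ranges of this list overlapped. Of 8 oocyte genes, 8 were called lower with glucose and 3 with naringin. Sperm genes summed to 35.5 to 47.8 FPKM in Control, 77.3 to 85.9 in Glu, 40.9 to 50.7 in DMSO+Glu and 18 to 21.8 in Nar+Glu. Of these 10 genes, 9 were called higher with glucose, 3 lower in DMSO+Glu than in Glu, and 5 lower with naringin. Of 11 pharynx genes, 6 were called higher with glucose and 2 with naringin, and their sum was 79.3 to 101 FPKM in Control and 143 to 171 in Glu. Of 8 body muscle genes, 4 were called higher with glucose and 2 lower with naringin. Of 10 intestine genes, 4 were called higher and 4 lower with glucose, and 3 lower with naringin. Of 6 genes of the seam, the lateral epidermis that makes the alae, 2 were called higher with glucose and 0 with naringin (2 at an unadjusted p below 0.05). The seam sum was 40 to 47.5 FPKM in Control, 45.2 to 54 in Glu, 48.2 to 58.5 in DMSO+Glu and 57.2 to 62.4 in Nar+Glu. Between DMSO+Glu and Glu, the adult epidermis genes col-7 and col-62 were called lower and 1 intestine gene, cpr-6, higher. Genes of the early zygotic embryo summed to 15.8 to 24.4 FPKM over all libraries, for 9 of the 17 listed genes, the other 8, end-1 and med-1 among them, not being analysed here. The part of these shifts in the results below was not tested. No list covered late embryos or larvae, so any of these left inside or among the adults were not measured.

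**Figure D2:**
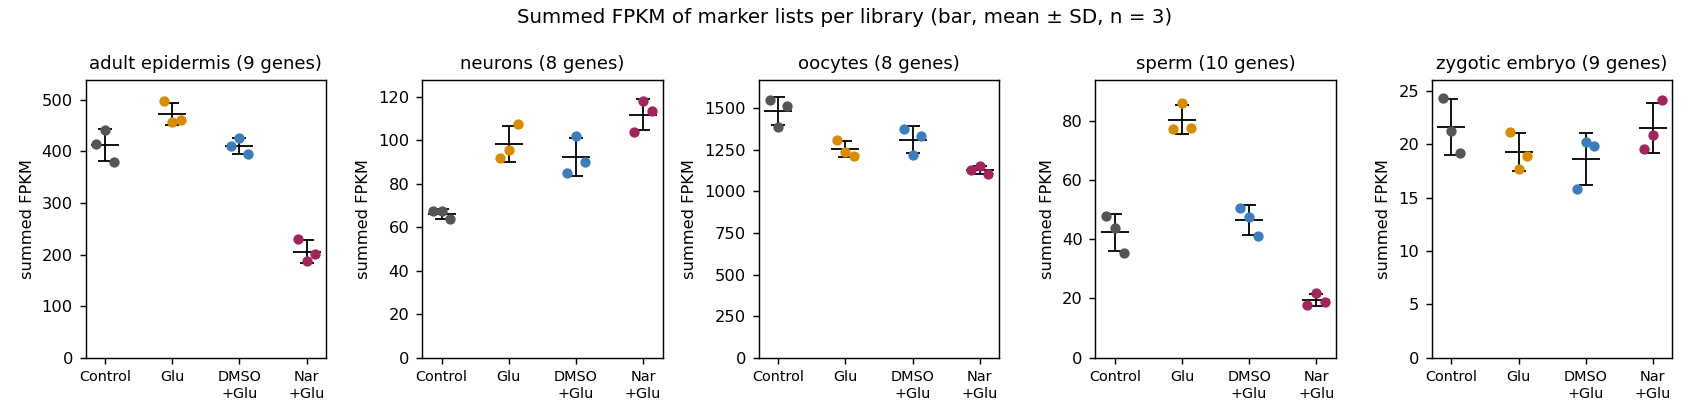
Summed FPKM of 5 marker lists (vertical axes, linear from 0) in the 12 libraries, with 1 point per library and the mean ± SD of 3 libraries per group. The adult epidermis genes are lowest in the 3 Nar+Glu libraries (188 to 230), and the neuronal genes lowest in the 3 Control libraries (63.7 to 67.7).

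Among the cuticulins, cut-3 had the largest change with naringin of the 70 genes. Known for a part in the alae, the lateral ridges of the first larval stage, it lies on chromosome II at 8445169 to 8446831. Its level was 12.2, 12.2 and 11 FPKM in Control, 17.9, 20.3 and 20.5 in Glu, 18.5, 18.6 and 18.9 in DMSO+Glu, and 47.3, 50.8 and 50.8 in Nar+Glu. The groups did not overlap in either comparison, and the Glu and DMSO+Glu libraries lay together between the others. The change was 0.68 ± 0.07 (SE) with glucose (adjusted p = 2.02e-05) and 1.36 ± 0.07 with naringin (adjusted p = 6.94e-08), which is a 2.66-fold difference of mean FPKM. Both calls held without each of the 6 libraries compared. The end of cut-3 overlaps evl-20 on the opposite strand by 9 bases, and evl-20 was not called, with changes of -0.23 and -0.17.

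The related cutl-23 (chromosome III, 5770185 to 5774703) had the same order of groups at a level near the 1 FPKM filter. It was at 0.266, 0.944 and 0.672 FPKM in Control, 1.92, 1.73 and 1.62 in Glu, 1.23, 1.37 and 1.39 in DMSO+Glu, and 3.04, 3.22 and 3.33 in Nar+Glu. Every Nar+Glu library was above every other library, and every Control library was below. The change was 0.78 ± 0.15 with glucose (adjusted p = 0.0029) and 0.85 ± 0.15 with naringin (adjusted p = 0.0037), and both calls held without each library.

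The most abundant cuticulin was cut-2, whose product is an insoluble, cross-linked cuticle component (chromosome V, 13414949 to 13416064). It stood at 36.6, 45.2 and 33.6 FPKM in Control, 49.2, 43.5 and 53.1 in Glu, 60.1, 55.9 and 47.8 in DMSO+Glu, and 109, 61.0 and 84.1 in Nar+Glu. The Nar+Glu libraries were all above the DMSO+Glu libraries, but replicate 2 of Nar+Glu exceeded replicate 1 of DMSO+Glu only narrowly. The change with naringin was 0.59 ± 0.16 (adjusted p = 0.0371), and it was lost without DMSO+Glu replicate 1, 2 or 3 or Nar+Glu replicate 1 or 3 (adjusted p 0.0611 to 0.135). It was kept without Nar+Glu replicate 2 (0.0051). The transcript listed for cut-2 does not follow the gene value. It was at 38.9, 1.08 and 35.7 FPKM in Control and at 44.4, 36.4 and 89.2 in Nar+Glu, with a change of 0.13 ± 0.94 with naringin, which was not called.

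Next came cut-6, known from dauer larvae for alae and body shape (chromosome III, 10911460 to 10916665). It was at 2.18, 1.78 and 1.42 FPKM in Control, 1.76, 2.14 and 1.98 in Glu, 1.56, 2.77 and 1.97 in DMSO+Glu, and 3.37, 3.41 and 4.15 in Nar+Glu. Only Nar+Glu stood apart, and the other 3 groups overlapped. The change with naringin was 0.60 ± 0.16 (adjusted p = 0.0279). It lost its call without DMSO+Glu replicate 1 or 3 or any 1 Nar+Glu library (adjusted p 0.0563 to 0.129) and held without DMSO+Glu replicate 2 (0.0118). The transcript listed for cut-6 was far below the gene value and did not follow it. This transcript was at 0.598, 0.122 and 0.236 FPKM in DMSO+Glu and at 0.099, 0.144 and 0.421 in Nar+Glu, too low to be tested.

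Another cuticulin-like gene, cutl-28 (chromosome IV, 684497 to 688340), was nearly level in 3 groups and higher in the fourth. It measured 1.91, 2.04 and 2.02 FPKM in Control, 1.77, 2.16 and 2.19 in Glu, 2.15, 2.26 and 2.48 in DMSO+Glu, and 3.51, 4.19 and 3.64 in Nar+Glu. No Nar+Glu library overlapped the others. The change with naringin was 0.53 ± 0.11 (adjusted p = 0.011) and held without each library (adjusted p 0.0252 to 0.0499), while the change with glucose was 0.02 (adjusted p = 0.896).

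The last cuticulin called with naringin, cutl-18 (chromosome V, 11313362 to 11316901), was at 0.976, 1.85 and 1.44 FPKM in DMSO+Glu and at 2.62, 2.62 and 2.11 in Nar+Glu, against 1.44 to 1.86 in Control and 1.54 to 1.86 in Glu. Its change was 0.52 ± 0.15 (adjusted p = 0.0425), with no call without DMSO+Glu replicate 1 or 3 or any 1 Nar+Glu library (adjusted p 0.0616 to 0.177) and a call without DMSO+Glu replicate 2 (0.024). It overlaps T03F7.7 on the opposite strand by 84 bases, and T03F7.7 had a change of 0.53 with glucose (adjusted p = 0.011) and of 0.27 with naringin (adjusted p = 0.212).

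**Figure D3:**
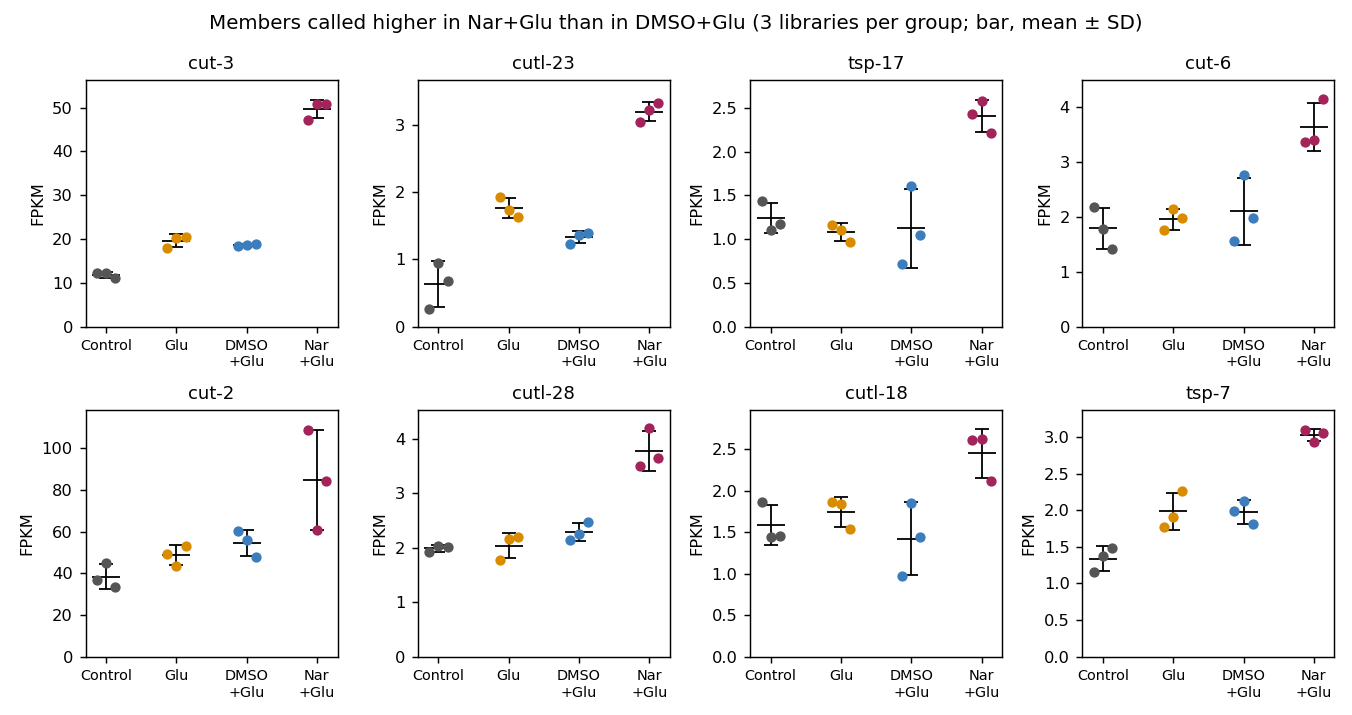
FPKM per library (vertical axes, linear from 0) of the 8 genes called higher in Nar+Glu than in DMSO+Glu, with 1 point per library and the mean ± SD of 3 libraries per group. In all 8 panels the 3 Nar+Glu libraries lie above the 3 DMSO+Glu libraries, most widely for cut-3 (47.3 to 50.8 against 18.5 to 18.9 FPKM).

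The remaining cuticulins shared the direction without passing the test. Of the 21 tested, 20 had a positive change with naringin, with a median of 0.38 (0.32 with quantile normalization, where 19 were positive). The exception, cut-4, was at 1.70, 1.15 and 1.66 FPKM in DMSO+Glu and at 0.562, 1.13 and 0.770 in Nar+Glu, a change of -0.46 ± 0.16 (adjusted p = 0.0892). Its mean in Nar+Glu was the lowest of the 4 groups. By contrast cut-5, like cut-3 known from the alae of the first larval stage, was at 1.09, 1.05 and 1.27 FPKM in DMSO+Glu and at 1.93, 2.1 and 2.06 in Nar+Glu, with an adjusted p of 0.0529. These groups did not overlap, and the change was 0.50 ± 0.15.

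Summed over the 29 cuticulins, the level was 69.5 to 87.5 FPKM in Control, 100 to 112.9 in Glu, 99.4 to 115 in DMSO+Glu and 165 to 211 in Nar+Glu. The ranges of Glu and DMSO+Glu overlapped. Without cut-2 and cut-3, which made up most of this sum, the same libraries gave 24.9 to 32.9, 36.5 to 39.3, 32.7 to 40.2 and 53.2 to 55.2 FPKM. Between the solvent and naringin libraries the adult epidermis sum was lower, without overlap, and 5 of the 6 seam genes had a positive change (0 called), and the part of either in the cuticulin values was not tested.

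With glucose, cutl-20, cutl-24 and cutl-15 were called higher beside cut-3 and cutl-23. The first rose from 1.70, 1.58 and 1.04 FPKM in Control to 1.97, 3.23 and 2.82 in Glu, by 0.58 ± 0.18 (adjusted p = 0.0283). The second rose from 0.852, 0.599 and 1.14 to 1.49, 1.59 and 1.79 FPKM, by 0.50 ± 0.17 (adjusted p = 0.0346), and the third from 2.39, 2.36 and 1.58 to 2.83, 3.26 and 3.23 FPKM, by 0.41 ± 0.12 (adjusted p = 0.0244). All 3 pairs of groups were without overlap, by narrow gaps. Leaving out Control replicate 3, Glu replicate 2 or Glu replicate 3 ended each of these calls for cutl-20 (adjusted p 0.0864 to 0.102) and cutl-15 (0.0702 to 0.0894), and leaving out any 1 library but Control replicate 3 did so for cutl-24 (0.0514 to 0.108). The size of the cuticulin changes with glucose depended on scaling. Their median was 0.20 with 19 of 21 positive as deposited, and 0.03 with 11 of 21 positive after quantile normalization. The cutl-20 gene shares 370 bases with shc-1 on the same strand, so that its reads may be split between them.

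The NOAH proteins join a ZP domain to PAN modules in the apical matrix that shapes the larval epidermis. For noah-2 (chromosome IV, 14091254 to 14096626) the levels were 20.9, 20.9 and 17.2 FPKM in Control, 23.4, 23.3 and 24.6 in Glu, 25.6, 27.7 and 23.8 in DMSO+Glu, and 29.5, 29.7 and 30.2 in Nar+Glu. Control was lowest and Nar+Glu highest without overlap. The change with glucose was 0.26 ± 0.08 (adjusted p = 0.025) and was not called without Control replicate 3 (0.102) or Glu replicate 3 (0.0866), and that with naringin was 0.21 ± 0.08 (adjusted p = 0.113). For noah-1 the changes were 0.10 and 0.13, with adjusted p of 0.458 and 0.414.

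The 2 main noah-1 isoforms were listed unevenly among the Nar+Glu libraries. Isoform a was at 17.5, 20.5 and 15.8 FPKM in DMSO+Glu and at 0.00972, 15.3 and 0.00384 in Nar+Glu. Isoform b was at 8.45, 10.3 and 10.6 FPKM in DMSO+Glu and at 28.7, 15.8 and 24.5 in Nar+Glu. In the 2 Nar+Glu libraries where isoform a was near 0, isoform b was highest, and the gene value was 30.6, 33.6 and 32.2 FPKM in the 3 libraries. Neither isoform was called (adjusted p = 0.13 and 0.0815).

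Astacins are zinc metalloproteases, and of the 19 tested 4 were called higher and 1 lower with glucose, and 0 in either direction with naringin (2 at an unadjusted p below 0.05, and 1 called higher after quantile normalization). The share called with glucose was 26.3%, where it was 31.3% over all genes tested, and with naringin 9.87% of all genes tested were called. The choice by symbol leaves out the astacin gene hch-1, which was called higher in both comparisons and is given below with the apical matrix genes. It also leaves out toh-1 of the same list, named after its values were seen. The changes of toh-1 were 0.18 with glucose and 0.07 with naringin, not called (adjusted p = 0.155 and 0.672). The procollagen C-protease gene dpy-31 (chromosome III, 7202206 to 7207664) was at 9.64, 9.57 and 7.0 FPKM in Control, 11.7, 11.9 and 11.4 in Glu, 11.7, 12.9 and 11.8 in DMSO+Glu, and 14.3, 14.7 and 15.0 in Nar+Glu. Groups did not overlap in either of the comparisons. The change was 0.39 ± 0.10 with glucose (adjusted p = 0.0127), held without each library, and was 0.26 ± 0.10 with naringin (adjusted p = 0.117).

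Of the moulting astacins, nas-37 (chromosome X, 9944844 to 9949063), needed to shed the old cuticle, was at 6.09, 6.18 and 4.40 FPKM in Control and 7.82, 7.96 and 6.96 in Glu. The change was 0.40 ± 0.12 (adjusted p = 0.027), without overlap, and was not called without Control replicate 3 (0.106) or Glu replicate 1 (0.0642) or 2 (0.078). Its partner in moulting, nas-36, was at 1.51 to 2.25 FPKM in Control and 1.87 to 2.02 in Glu, with a change of 0.06 (adjusted p = 0.773). The change of nas-38, which has been linked to the sleep of moulting larvae, was 0.31 with glucose and 0.14 with naringin (adjusted p = 0.128 and 0.575).

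The astacin gene nas-9 (chromosome V, 4836027 to 4840013) was called higher with glucose and had a negative change with naringin. It was at 4.13, 3.76 and 3.17 FPKM in Control, 5.37, 5.13 and 5.86 in Glu, 5.27, 5.84 and 4.87 in DMSO+Glu, and 5.30, 4.44 and 4.21 in Nar+Glu. Control stood apart from Glu, and DMSO+Glu overlapped Nar+Glu. The changes were 0.47 ± 0.11 (adjusted p = 0.0101, held without each library) and -0.17 ± 0.11 (adjusted p = 0.376). For nas-31 (chromosome V, 10918857 to 10921847) the levels were 1.03, 0.789 and 1.09 FPKM in Control and 1.29, 1.96 and 1.81 in Glu, with a change of 0.44 ± 0.16 (adjusted p = 0.0482) that was kept without Glu replicate 1 (0.0324) and lost without any other 1 library (0.067 to 0.144).

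The only astacin called lower was nas-3 (chromosome V, 9478163 to 9479601). Its level was 3.74, 2.51 and 2.63 FPKM in Control, 1.06, 1.09 and 1.06 in Glu, 2.25, 2.39 and 1.3 in DMSO+Glu, and 1.89, 1.32 and 1.61 in Nar+Glu. Every Glu library was below every other library, so that the DMSO+Glu group lay between Glu and Control. The change with glucose was -0.92 ± 0.17 (adjusted p = 0.0019), held without each library, and that of DMSO+Glu against Glu was 0.51 ± 0.17 (adjusted p = 0.255).

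**Figure D4:**
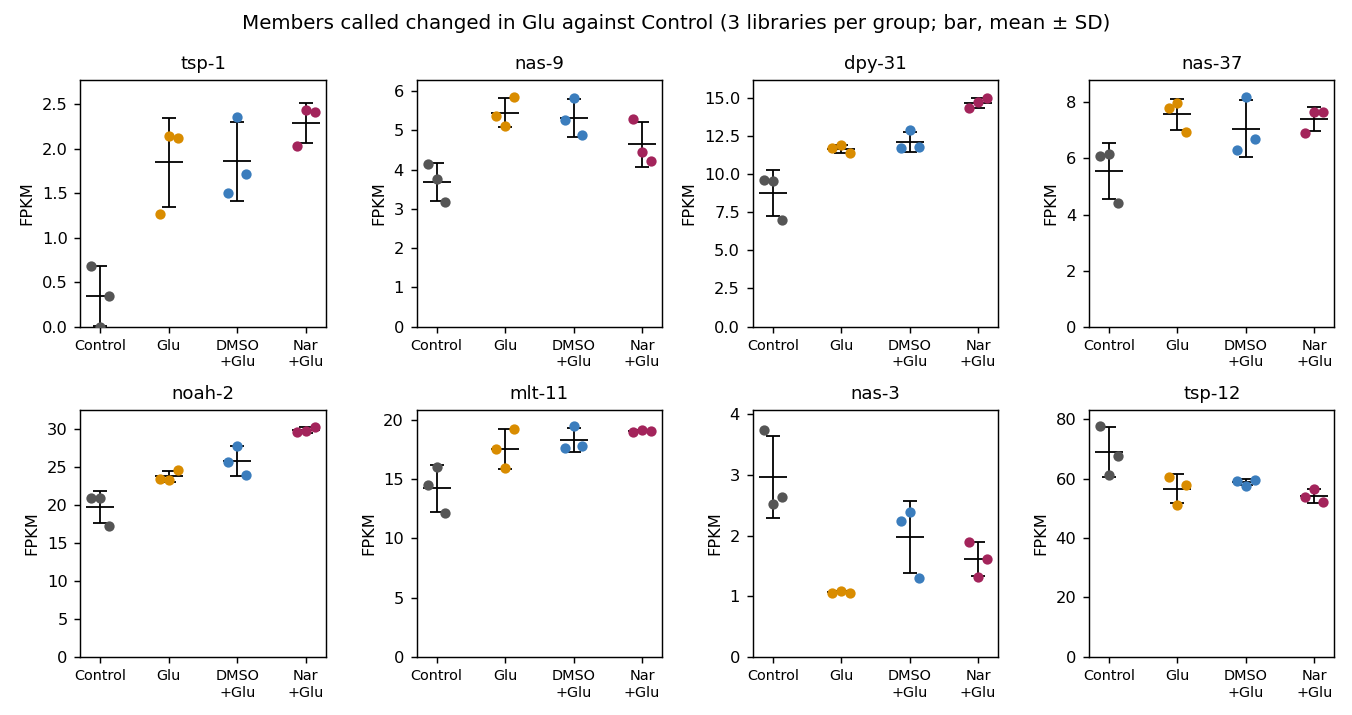
FPKM per library (vertical axes, linear from 0) of 8 of the 16 genes called in Glu with Control, with 1 point per library and the mean ± SD of 3 libraries per group. Control is lowest for tsp-1, nas-9, dpy-31 and noah-2, Glu is lowest for nas-3 (1.06 to 1.09 FPKM), and the mlt-11 groups overlap.

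Of the 7 mlt genes tested, 1 was called with glucose and 0 with naringin (2 at an unadjusted p below 0.05). Over all genes tested the share called was 31.3% with glucose and 9.87% with naringin. The called gene, mlt-11 (chromosome V, 20667205 to 20678537), codes for a Kunitz-type protease inhibitor. It was at 14.5, 16 and 12.1 FPKM in Control and at 17.5, 15.9 and 19.3 in Glu, so that the groups overlapped, with a change of 0.29 ± 0.10 (adjusted p = 0.034). The call was lost without Control replicate 1 (0.0597) or 3 (0.138) or Glu replicate 1 (0.0646) or 3 (0.14). It stayed between 17.6 and 19.5 FPKM in DMSO+Glu and Nar+Glu.

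For mlt-9 the levels were 7.28, 9.94 and 7.66 FPKM in DMSO+Glu and 12.1, 10.1 and 10.9 in Nar+Glu, without overlap, with a change of 0.38 ± 0.12 (adjusted p = 0.0524, and 0.0157 without DMSO+Glu replicate 2). In contrast mlt-10, whose product marks the moulting cycle, was at 10.0, 12.6 and 10.9 FPKM in DMSO+Glu and 8.72, 8.23 and 9.40 in Nar+Glu. These did not overlap either, and the change was -0.31 ± 0.11 (adjusted p = 0.0785). The gene shares bases with others on its own strand, lips-7 among them. The haem peroxidase gene mlt-7 had changes of 0.09 and 0.10, and mlt-8 changes of -0.14 and 0.19, with adjusted p of 0.431 to 0.634 over the 4 values.

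The genes bli-3, bli-4, acn-1, dpy-18 and phy-2 were called in none of the 3 comparisons. The dual oxidase gene bli-3 was at 4.82 to 6.04 FPKM in Control, 5.89 to 7.02 in Glu, 6.22 to 7.10 in DMSO+Glu and 7.11 to 7.46 in Nar+Glu, with changes of 0.18 and 0.14 (adjusted p = 0.178 and 0.387). The prolyl 4-hydroxylase subunit gene dpy-18 was at 14 to 17.9 FPKM in the 12 libraries and phy-2 at 4.66 to 6.60. Their changes lay between -0.09 and 0.05 in both comparisons, with SEs of 0.08 and 0.11. The proprotein convertase gene bli-4 was at 22.2 to 27.5 FPKM, with changes of -0.14 and -0.03. For acn-1, which larvae need for moulting and whose product resembles angiotensin-converting enzyme without its catalytic residues, the levels were 11.2, 13.5 and 10.3 FPKM in DMSO+Glu and 13.8, 16.4 and 14.9 in Nar+Glu. They did not overlap, and the change was 0.35 ± 0.12 (adjusted p = 0.0786, and 0.0358 without DMSO+Glu replicate 2).

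Tetraspanins are membrane proteins with 4 spans that organise receptors and enzymes. Of the 16 tested, 3 were called higher and 1 lower with glucose, and 2 higher with naringin. The share called was 25% with glucose, where it was 31.3% over all genes tested, and 12.5% with naringin, where it was 9.87%. The largest change of any of the 70 genes with glucose was that of tsp-1 (chromosome III, 8238001 to 8239423), listed at 0.683, 0 and 0.348 FPKM in Control and at 1.27, 2.15 and 2.13 in Glu. It was at 1.5 to 2.36 FPKM in DMSO+Glu and 2.04 to 2.44 in Nar+Glu, so that Control alone stood apart. With a Control mean of 0.344 FPKM, tsp-1 passed the filter only through the other groups. The change was 1.10 ± 0.20 (adjusted p = 0.0017), held without each library. Its neighbour tsp-2, 65 bases away and named after its values were seen, had a change of 0.34 (adjusted p = 0.221).

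For tsp-7 (chromosome I, 9969972 to 9973177) both steps were called. It was at 1.15, 1.37 and 1.49 FPKM in Control, 1.78, 1.91 and 2.27 in Glu, 1.98, 2.13 and 1.82 in DMSO+Glu, and 3.09, 2.93 and 3.06 in Nar+Glu. The groups compared did not overlap. The change was 0.35 ± 0.12 with glucose (adjusted p = 0.039) and 0.44 ± 0.12 with naringin (adjusted p = 0.0354). The first call was lost without Control replicate 1 or 2 or Glu replicate 2 or 3 (0.0599 to 0.148), and the second without any 1 library but DMSO+Glu replicate 2 (0.0716 to 0.112). The gene overlaps mom-5 on the opposite strand by 66 bases, and mom-5 had changes of -0.30 (adjusted p = 0.012) and -0.13 (0.308).

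The second tetraspanin called with naringin was tsp-17 (chromosome X, 3681164 to 3684234). It was at 1.43, 1.10 and 1.18 FPKM in Control, 1.17, 1.11 and 0.965 in Glu, 0.719, 1.61 and 1.05 in DMSO+Glu, and 2.43, 2.58 and 2.22 in Nar+Glu. Only Nar+Glu stood apart. The change was 0.70 ± 0.16 (adjusted p = 0.0127), and 0.0642 was its adjusted p without DMSO+Glu replicate 1. It overlaps tag-278 on the opposite strand by 23 bases, and tag-278 changed in the same direction, by 0.49 with naringin (adjusted p = 0.02). The part of that gene's reads in the value of tsp-17 was not tested. No transcript listed for tsp-17 passed the filter. Isoform a was at 0, 0 and 1.17 FPKM in DMSO+Glu and at 2.86, 0 and 1.90 in Nar+Glu. Isoform c was at 0.396, 0.683 and 0.128 FPKM and at 0.286, 0.924 and 0.950, and isoform d at 0.850, 1.36 and 0 and at 0, 0.254 and 0.

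Among tetraspanins of the bone morphogenetic protein pathway, which sets body size, tsp-12 (chromosome IV, 10149166 to 10150602) was the most abundant and was called lower with glucose. It was at 77.9, 61.3 and 67.5 FPKM in Control, 60.7, 51.2 and 57.9 in Glu, 59.2, 57.6 and 59.6 in DMSO+Glu, and 53.7, 56.6 and 52.3 in Nar+Glu. Control and Glu were separated by less than 1 FPKM. The change was -0.28 ± 0.08 (adjusted p = 0.0229), not called without Control replicate 1 (0.0909) or Glu replicate 2 (0.0952) or 3 (0.0514). Its relative tsp-14, named after its values were seen, was called higher, by 0.33 ± 0.11 (adjusted p = 0.0346), and not without Control replicate 1 or 3 or Glu replicate 1 or 3 (0.0505 to 0.109). Another relative, tsp-21, also named after its values were seen, was not called with glucose (adjusted p = 0.175, and 0.0345 without Glu replicate 1). The partner of the dual oxidase, tsp-15, was at 6.67, 8.65 and 7.17 FPKM in DMSO+Glu and 10.3, 10.5 and 11.9 in Nar+Glu. Its changes of 0.38 and 0.49 had adjusted p of 0.0651 and 0.0521, and passed without Control replicate 1 (0.0308) or Glu replicate 2 (0.0293), and without DMSO+Glu replicate 2 (0.0397).

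The glucose and naringin comparisons share no libraries in the means they compare. The spread of each gene was estimated from all 12 libraries for both, so the 2 tests are not independent. Called higher in both were 3 genes, cut-3, cutl-23 and tsp-7, and 0 were called in opposite directions. The change was positive in both comparisons for 49 of the 70. Of all genes tested, 43.3% had a positive change with glucose and 48.1% with naringin. How many of all genes tested were called, or positive, in both comparisons is not given here, so these counts are not read as particular to the 70 genes. Whether a gene's change differed between the 2 comparisons was not tested.

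**Figure D5:**
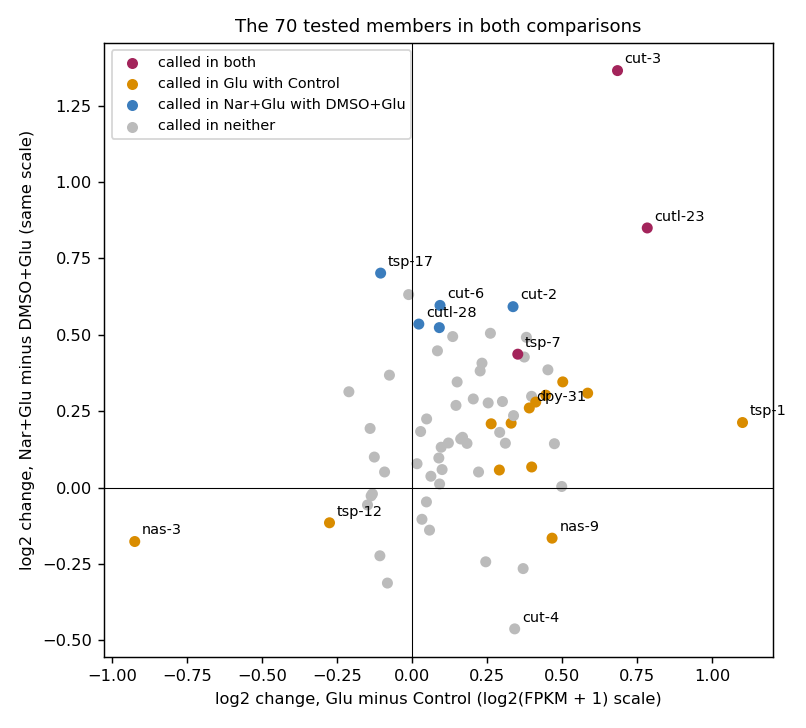
Each point is 1 of the 70 tested genes, with its change in log2(FPKM + 1) in Glu minus Control on the horizontal axis and in Nar+Glu minus DMSO+Glu on the vertical axis, coloured by the comparison in which it was called. Most points (49) lie to the upper right of the origin, among them cut-3 (0.68 and 1.36) and cutl-23 (0.78 and 0.85), while tsp-1 (1.10) and nas-3 (-0.92) lie farthest out on the horizontal axis.

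Counted without a test over all 91 genes, 26 had all 3 Glu libraries above all 3 Control libraries and 3 had them below, where all genes in the files gave 18.1% above and 22.7% below. With naringin, 32 were above and 4 below, where all genes gave 15.2% above and 16.5% below. The 21 genes that were not tested, with means of 0.363 to 0.895 FPKM, gave 3 and 5 of the higher counts and none of the lower. Of these, bli-5, a Kunitz-type inhibitor, was at 0.165 to 1.44 FPKM in Control and 0.689 to 0.834 in Nar+Glu, and phy-3, a prolyl 4-hydroxylase of the spermatheca, at 0.372 to 0.784 and 0 to 1.09.

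Transcripts were listed for 87 of the 91 genes, 115 in all, of which 72 passed the filter. With glucose 3 were called higher and 2 lower (9.39% of all transcripts tested were called), and with naringin 3 were called higher (2.19% of all). Those called in both were the transcript of cut-3, with 0.68 ± 0.07 and 1.36 ± 0.07 (adjusted p = 0.000505 and 1.75e-05), and isoform a of cutl-23, with 0.79 ± 0.16 and 0.84 ± 0.16 (adjusted p = 0.0187 and 0.0302). The others were the transcripts of tsp-1 and nas-3 with glucose and of cutl-28 with naringin. With glucose isoform d of bli-4 was called lower as well, from 30.2, 32.3 and 28.2 FPKM in Control to 24.2, 20.1 and 21.8 in Glu, by -0.44 ± 0.11 (adjusted p = 0.0418), without overlap. The bli-4 gene value was not called. Leaving out 1 library gave 1 to 6 transcript calls with glucose (3 without Control replicate 1 or 3, 1 without Glu replicate 2 and 2 without Glu replicate 3) and 1 to 2 with naringin, where each of DMSO+Glu replicates 1 to 3 and Nar+Glu replicates 1 and 3 left 1.

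Other genes of moulting and of the apical matrix were read from lists. Of 15 tested regulators of moulting, 3 were called higher and 1 lower with glucose, that is 26.7% called in either direction against 31.3% of all genes tested. The Grainyhead factor grh-1 rose by 0.48, the megalin homologue lrp-1 by 0.42, and peb-1 by 0.41, while the ROR-type nuclear receptor nhr-23, a driver of the moulting cycle, fell by 0.25. With naringin grh-1 rose by 0.58 and let-767 fell by 0.37, which makes 13.3% called against 9.87% of all genes tested. The median of the list was 0.08 in both comparisons. Of these, the calls of lrp-1 and let-767 held without each library. Those of grh-1 were lost in the glucose comparison without Control replicate 2 or 3 or Glu replicate 1 or 3 (adjusted p 0.0517 to 0.0757) and in the naringin comparison without DMSO+Glu replicate 1 or 3 or Nar+Glu replicate 1 (0.0538 to 0.0786). That of peb-1 was lost without any 1 library but Glu replicate 2 (0.0579 to 0.162), and that of nhr-23 without Control replicate 1 or 3 or Glu replicate 1 or 2 (0.0585 to 0.1).

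Of 29 tested genes of the apical matrix and its processing, 4 were called higher and 3 lower with glucose, and 4 higher and 2 lower with naringin. The share called in either direction was 24.1% with glucose, where it was 31.3% over all genes tested, and 20.7% with naringin, where it was 9.87%. The hatching astacin gene hch-1 rose in both, from a mean of 4.76 FPKM in Control to 8.53 in Glu and from 11 in DMSO+Glu to 15.9 in Nar+Glu, by 0.73 and 0.50. With glucose the convertase genes egl-3, which is also one of the neuronal markers, and kpc-1 rose by 0.64 and 0.41, and cpz-1, egg-6 and pdi-6 fell by 0.46, 0.34 and 0.21. With naringin dyf-7 and dex-1, matrix genes that anchor dendrites, rose by 0.63 and 0.57. Called higher in the other comparison too were dex-1, by 0.28 with glucose, and kpc-1, by 0.31 with naringin. The protein disulfide isomerase gene pdi-2, a subunit of prolyl 4-hydroxylase, fell by 0.24 with naringin, and egg-6 by 0.31. The calls of hch-1 in both comparisons, kpc-1, cpz-1 and egg-6 with glucose and dex-1 with naringin held without each library. Lost without at least 1 were those of egl-3 (Control replicates 1 and 2, Glu replicates 2 and 3, adjusted p 0.0589 to 0.102), pdi-6 (Control replicate 1, Glu replicates 1 and 3, 0.0554 to 0.0695), dyf-7 (all but DMSO+Glu replicate 2, 0.0655 to 0.135), pdi-2 (DMSO+Glu and Nar+Glu replicate 3, 0.0527 and 0.0501) and egg-6 with naringin (DMSO+Glu replicate 1, Nar+Glu replicates 1 and 3, 0.059 to 0.0727). The glucose call of dex-1 was lost without Control replicate 3 (0.0813) or Glu replicate 1 (0.101), and the naringin call of kpc-1 without any 1 library (0.0675 to 0.15). In DMSO+Glu with Glu, 0 genes of either list were called by limma, with 0 of the moulting regulators and 5 of the matrix genes at an unadjusted p below 0.05.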

How the data were processed

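The authors enriched poly(A) RNA of whole worms and built stranded libraries from it. The gene and transcript values are FPKM that the authors deposited after HISAT2 2.1.0 alignment to WBcel235, StringTie 1.3.3 assembly and Ballgown. Whether the counting used strand is not given in the sources used here, and 32 of the 91 genes overlap another gene of the files. The lowest value of a gene's highest group mean was 0.5 FPKM, so lower genes had been removed beforehand. Circular RNA counts were deposited by the authors from STAR 2.5.2b alignments of the same libraries.

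Each library was assigned to its group from the labels. Values were tested on log2(FPKM + 1) with limma 3.58.1 in R 4.3.3, with a mean-variance trend and 1 mean per group over all 12 libraries. P-values were adjusted over the 12151 genes, or 17588 transcripts, with a mean above 1 FPKM. The method was tested on simulated data. Deposited FPKM carry no fragment number, so no counting interval is given for them. For the circular RNA counts, a sum of 0 in a group allows up to 3 counts, which covers counting error only.

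Named are a fixed set of well-studied genes and the called genes with the largest changes, up to 8 in each direction of a comparison (5 for the solvent). From each pathway list up to 3 called genes in each direction of a comparison are named. The second calls of dex-1 and kpc-1 were added after their values were seen. The genes and lists were chosen with earlier results of these data known. Gene coordinates are those of the WBcel235 annotation. The plots were made in matplotlib 3.10.9 (Python 3.11.15). The alternatives were other pseudocounts, filters and scalings, other variance models, the replicate number as a block, and each library left out.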

Additional observations from a re-analysis of the deposited data

Results flagged for a closer look

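A pair of circular RNAs inside mlt-4, a gene whose FPKM was too low to be tested, gave counts outside the linear RNA measurements. The one at 20282820 to 20283140 on chromosome V had a summed count of 4 in Glu, from counts of 0, 0 and 4, and 0 in the other 3 groups. The one at 20284265 to 20288415 had a summed count of 4 in DMSO+Glu, from counts of 2, 2 and 0, with 1 in Nar+Glu and 0 in Control and Glu. They are listed because 4 is more than the 3 counts that a sum of 0 in Control allows, in libraries with 856 to 1550 circular RNA counts. That limit leaves out the counting error of the 4 itself, and the 4 in Glu came from 1 library, so these counts do not show a difference between groups, which was not tested.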

How the results depend on the processing

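The 16 calls with glucose became 7 among the 23 genes with a mean above 5 FPKM, 8 with quantile normalization, 10 in a fit to only the 6 libraries compared, and 7 to 14 without 1 library. The 8 calls with naringin became 4 above 5 FPKM, 17 with median-ratio scaling, 13 with array weights, and 3 to 11 without 1 library. A library covariate without moderation left 1 call with glucose (bli-4, lower, none of the 16) and 0 with naringin, where it called 591 and 1 of all genes tested. The 5 transcript calls with glucose became 1 in the fit to 6 libraries, 0 with the library covariate, and 1 to 6 without 1 library. The 3 transcript calls with naringin became 1 with a pseudocount of 0.1, 1 above 5 FPKM, 1 in the fit to 6 libraries, 0 with the library covariate, and 1 to 2 without 1 library. Apart from the smaller number of genes or libraries in some of these fits, the cause was not tested. No called change of a named gene turned its direction under any alternative run. Residuals of libraries with the same replicate number in different groups correlated at -0.1004 to 0.1284 over 18 pairs, so the numbers were not taken as pairs. With the replicate block 14 genes were called with glucose, 6 with naringin and 0 for the solvent, and 4, 1 and 0 transcripts. Scaling moved the median of all genes by less than 0.1 on the log2 scale. The unknown fragment number limits what can be said of the 50 genes below 2 FPKM.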

Other observations

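Of 2136 circular RNAs, 6 lay inside the 91 genes. The one with the highest total count was in nas-38, on chromosome X at 558843 to 559103. Its counts were 2, 4 and 0 in Control, 0, 4 and 2 in Glu, 0, 2 and 0 in DMSO+Glu, and 6, 4 and 6 in Nar+Glu. Sums were 6, 6, 2 and 16, and the linear nas-38 gene was at 2.22 to 3.36 FPKM in DMSO+Glu and 2.91 to 3.17 in Nar+Glu. The circular counts are raw, from poly(A)-enriched libraries with 856 to 1550 circular RNA counts each. No difference between groups was tested for them. The other circular RNAs inside these genes, beside those of mlt-4, were in bli-4, mlt-11 and tsp-21, with summed counts of 0 to 3 in each group.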
